A study of Mus musculus with 14 samples.

Results

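Matrix metalloproteinases (Mmp genes), ADAMTS proteases (Adamts genes) and tissue inhibitors of metalloproteinases (Timp genes) were described in mouse epididymal fat. They were taken by symbol from a whole-transcript microarray, as numbered Mmp and Adamts genes and Timp1 to Timp4, with the probe set of the highest mean where a gene had several. The rule found 44 genes of 19937 with a single symbol, made up of 22 Mmp, 18 Adamts and 4 Timp genes. It did not use any difference between groups.

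RNA came from the epididymal fat pad, a visceral depot, of 14 male mice labelled C57BL6/J, with 1 array per sample. The EKO HFD group had 4 mice of the apolipoprotein E genotype labelled EKO, fed a Western diet with 42% milk fat for 24 weeks. The EKO ND group had 4 EKO mice on normal diet for the same 24 weeks. The WT HFD and WT ND groups had 3 wild-type mice each, on the same Western and normal diets. All 14 mice began the diet period at 8 weeks of age. Apolipoprotein E is a protein of lipoproteins that carries lipid to cells, and mice without it accumulate cholesterol-rich remnants in plasma. The labels call the arrays of a group biological replicates.

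The members act on the scaffold around cells. MMPs are zinc proteases that are secreted or held at the membrane as inactive proforms and that cut collagens, elastin, laminins and other matrix proteins, as well as cytokines and receptors. ADAMTS proteases are secreted relatives that cut proteoglycans such as versican and aggrecan, or trim procollagens. TIMPs bind the active site of these enzymes, and in fat that expands during obesity the matrix around adipocytes is rebuilt while macrophages enter the tissue.

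Levels are log2 values from RMA, which gives each probe set 1 level per array after background correction and normalization between arrays. A difference of 1 is a doubling. The deposited distributions were close but not equal, with SDs over all rows of 1.75 to 1.89 by array. A level of 1 probe set cannot be set against that of another. Array medians ran between 7.92 and 8.10, and arrays of a group correlated at 0.976 to 0.995. Background was read from 1208 olfactory and vomeronasal receptor rows, genes that fat is not known to use. Their 95th percentile, between 7.69 and 8.40 by array, served as the background level. In 5 arrays, which came from all 4 groups, the receptor rows averaged 6.75 to 6.84, against 6.29 to 6.56 in the other 9. Apoe, the gene of the labelled genotype, read 9.46 to 10.26 on the 8 EKO arrays and 13.13 to 13.65 on the 6 WT arrays. The ranges did not overlap. Whether its probes lie in the altered part of the gene is not given in the sources used here.

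Of the 44 members, 21 lay above background on every array of at least 1 group, and 17 of them did so in all 4 groups. These were 4 of 4 Timp, 8 of 22 Mmp and 9 of 18 Adamts genes. A further 14 members were not above background on any array, namely Adamts13, Adamts18, Adamts19, Adamts20, Mmp1a, Mmp1b, Mmp8, Mmp13, Mmp16, Mmp17, Mmp20, Mmp21, Mmp25 and Mmp27. The genes classed here as collagenases (Mmp1a, Mmp1b, Mmp8 and Mmp13) were thus all below it. Their differences cannot be read as changes in expression.

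**Figure D1:**
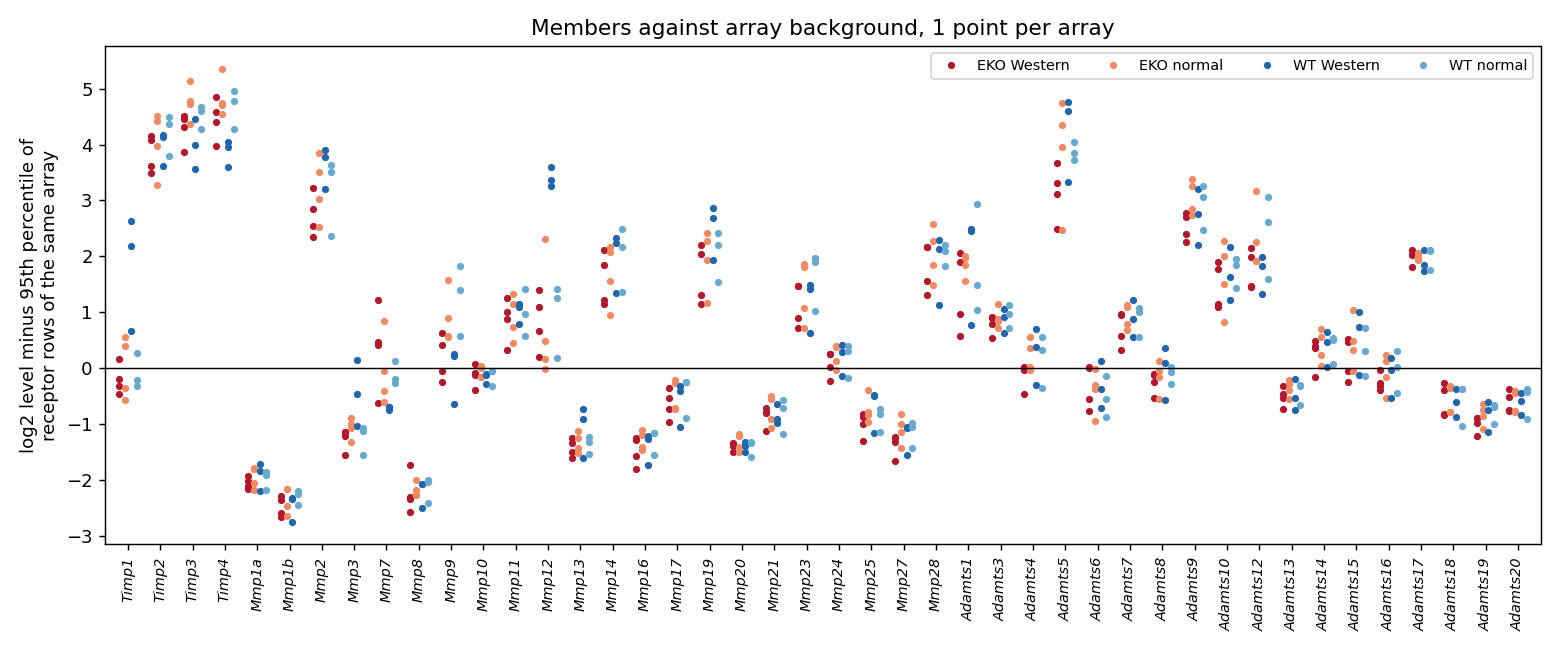
Log2 level of each of the 44 members minus the 95th percentile of the receptor rows on the same array, 1 point per array, coloured by group. Points above the line at 0 lie above background; 14 members have no point there, and Mmp12 and Timp1 stand higher in WT HFD than in the other groups.

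Western diet in WT fat was accompanied by higher Timp1 and Mmp12, and by lower Mmp9. Timp1 was 3.82-fold higher on Western diet, a value set against a WT ND group in which 1 of 3 arrays was above background. Mmp12 was 5.61-fold higher, while Mmp9 was 2.47-fold lower, with 2 of 3 WT HFD arrays above background. Mmp3 also passed as higher, but its level lay at background. In all, 4 of 44 members (9.09%) passed at an adjusted p under 0.05 in limma, against 5.49% of all genes. The 3 that were higher make 6.82% of the members, against 3.19% of all genes higher, and the 1 that was lower makes 2.27%, against 2.3% of all genes lower. The ranges of the groups did not overlap for 10 members (22.7%), against 20.0% of all genes. The median member differed by −0.01 and the median gene by −0.02, with 20 of 44 members above 0.

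In EKO fat no member passed for Western against normal diet. The count was 0 of 44, and 0.0% of all 19937 genes passed in that comparison. By unadjusted p under 0.05, 4 members and 883 genes passed, and array weights left the members' count at 0. Adamts9 was the 1 member (2.27%) whose ranges did not overlap, against 2.56% of all genes. The median member differed by 0.01, as did the median gene.

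On Western diet, EKO fat had lower Timp1, Mmp12, Mmp3, Mmp2 and Mmp19 than WT fat. Mmp12 was 5.47-fold lower, Mmp2 1.71-fold lower and Mmp19 1.63-fold lower in EKO. Timp1 was 3.78-fold lower, with 1 of 4 EKO HFD arrays above background. Mmp3 lay at background. These 5 of 44 members (11.4%) stood against 5.69% of all genes in either direction and 4.05% of all genes lower. None of the 44 members was higher, against 1.64% of all genes. The ranges did not overlap for 9 members (20.5%), against 16.6% of all genes. The median member differed by −0.01 and the median gene by 0.03. This comparison uses the same 3 WT HFD arrays as the diet comparison in WT, so the pair of results is not independent. The count fell to 2 without WT HFD replicate 3 or EKO HFD replicate 4, was 3 without WT HFD replicate 2 or EKO HFD replicates 1 or 3, and reached 8 without WT HFD replicate 1.

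On normal diet no member passed between EKO and WT fat, at 0 of 44 against 0.00502% of all genes, which was 1 gene. By unadjusted p, 0 members and 226 genes passed, and array weights also gave 0 members. The ranges overlapped for all 44 members, against 1.72% of all genes whose ranges did not. The 5 members with the smallest p were Mmp9 (−0.41), Mmp23 (−0.31), Mmp14 (−0.35), Timp2 (−0.21) and Mmp25 (0.12), as EKO minus WT on the log2 scale. Mmp25 was not above background on any array. The median member differed by −0.02 and the median gene by −0.01.

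The diet effect itself differed between the genotypes for Timp1, the 1 of 44 members (2.27%) that passed, against 0.482% of all genes. The other members that passed in 1 genotype or on 1 diet are therefore not shown to respond differently in EKO and WT mice. By unadjusted p under 0.05, 5 members and 2162 genes differed. After Timp1 the members with the smallest p were Mmp3, which lay at background, Mmp12 (−2.20), Mmp2 (−0.80 ± 0.28, adjusted p = 0.279) and Mmp9 (0.77), as EKO minus WT diet effect.

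**Figure D2:**
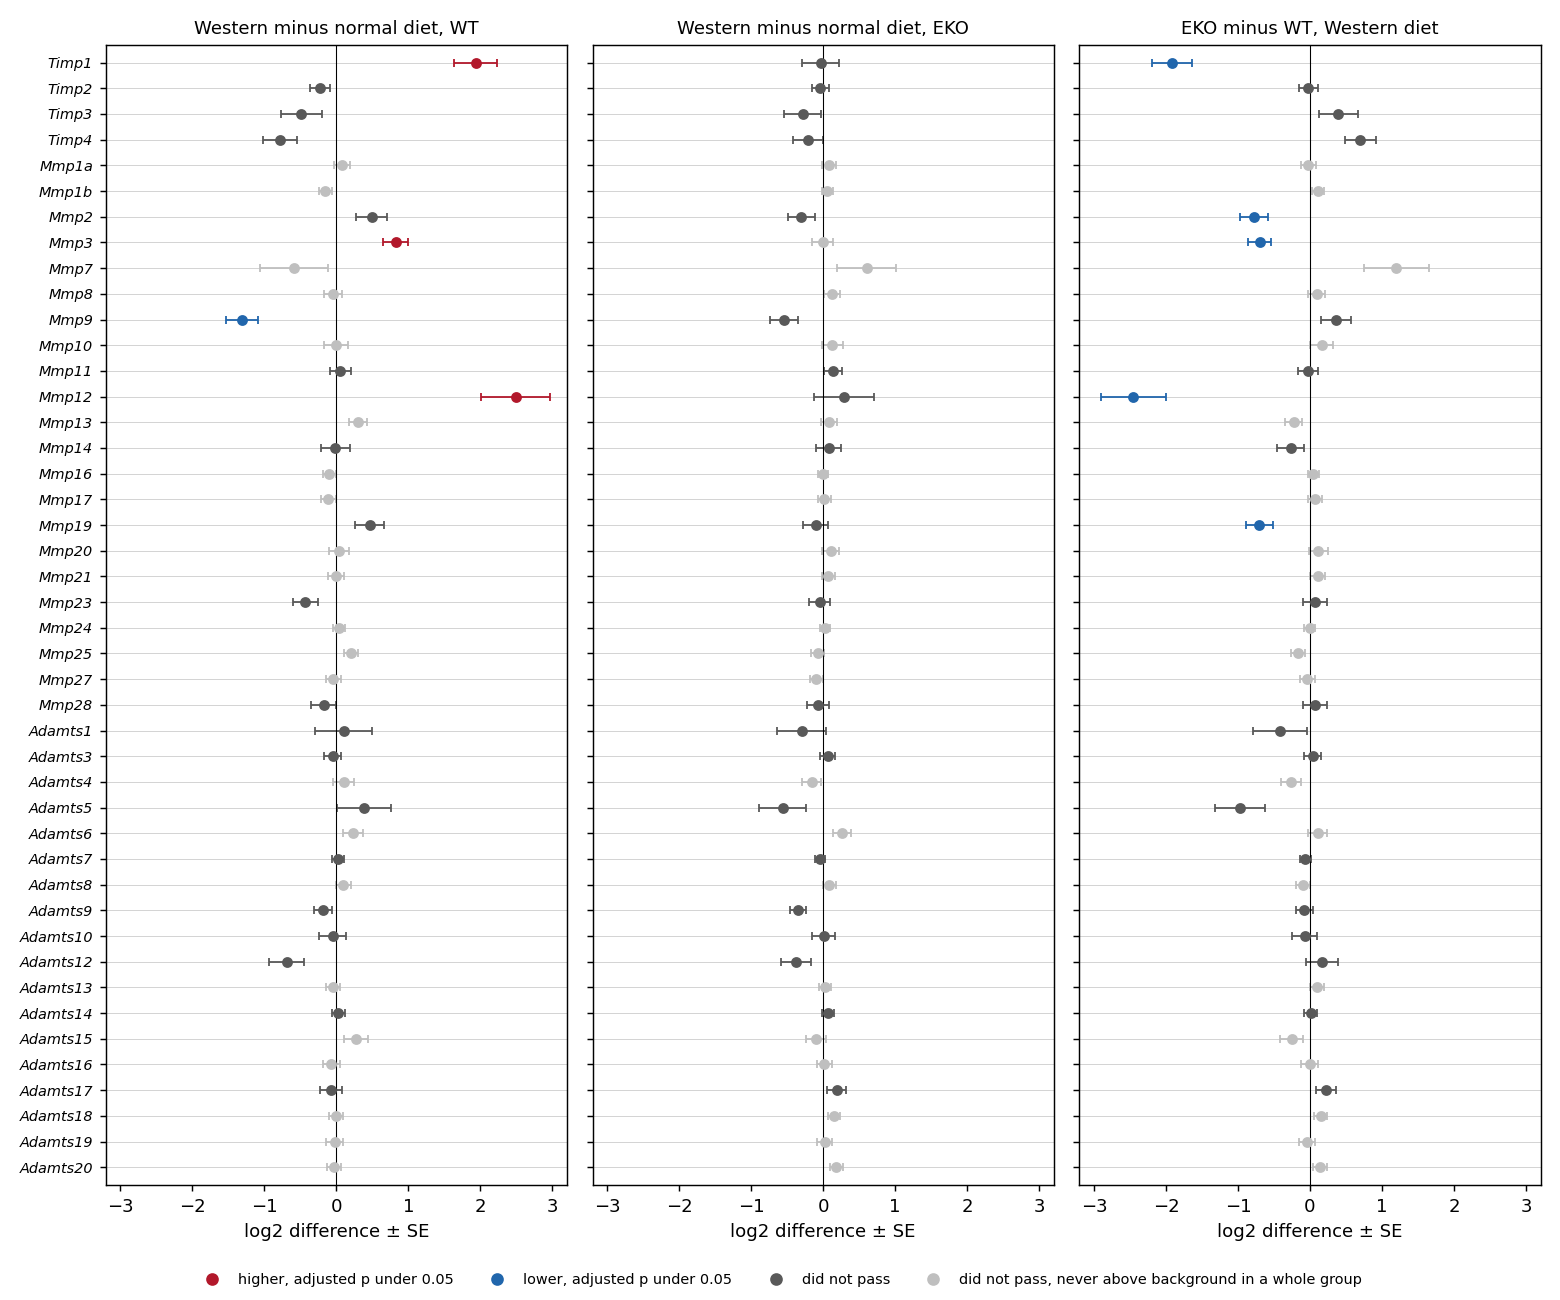
Log2 difference ± SE of each of the 44 members for Western minus normal diet in WT, the same in EKO, and EKO minus WT on Western diet. Red and blue points passed as higher and lower (4 members in the left panel, 0 in the middle, 5 in the right), dark grey did not pass, and light grey did not pass and was never above background on a whole group.

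Of the 4 inhibitors Timp1 passed in 3 of the 5 comparisons and the other 3 in none. Timp1, a secreted inhibitor of most soluble MMPs, rose with Western diet in WT fat. Its levels were 7.94, 7.66, 7.94 and 8.08 in EKO HFD and 7.67, 7.68, 8.24 and 8.15 in EKO ND, against 8.997, 9.93 and 10.53 in WT HFD and 8.03, 7.52 and 8.11 in WT ND. The 3 WT HFD arrays were all higher than each of the other 11. Western minus normal diet was 1.93 ± 0.29 in WT (SE, 95% interval 1.31 to 2.56, adjusted p = 0.00165). In EKO it was −0.03 ± 0.25 (−0.58 to 0.51, adjusted p = 0.988). EKO minus WT on Western diet was −1.92 ± 0.27 (adjusted p = 0.00122). Outside WT HFD the gene sat near background, which it passed on 1 of 4 EKO HFD, 2 of 4 EKO ND and 1 of 3 WT ND arrays.

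The EKO diet effect on Timp1 was lower than that in WT by a log2 difference of −1.97 ± 0.39 (−2.80 to −1.13, adjusted p = 0.0395). That call held in 2 of the 14 fits with 1 array left out, those without WT HFD replicate 1 and without EKO ND replicate 2. In the other 12 the adjusted p lay between 0.0535 and 0.124, with differences of −2.07 to −1.61. Both calls of Timp1 within 1 genotype or diet held without each array in turn.

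Timp4, the inhibitor known for its expression in fat and heart, had values on the opposite side. It read 12.67, 12.70, 12.36 and 12.52 in EKO HFD and 12.77, 12.81, 12.40 and 13.11 in EKO ND, against 12.30, 11.79 and 11.50 in WT HFD and 13.03, 12.12 and 12.78 in WT ND. WT HFD held the 2 lowest arrays of the 14, and its remaining array was above 1 WT ND array. The diet difference in WT was −0.78 ± 0.23 (−1.28 to −0.28, adjusted p = 0.0707), and EKO minus WT on Western diet was 0.70 ± 0.22 (adjusted p = 0.0802). Neither passed. The diet difference passed without WT ND replicate 2 (−1.04, adjusted p = 0.0241) and without WT HFD replicate 1 (−0.997, adjusted p = 0.0187). The genotype difference also passed without WT HFD replicate 1 (0.92, adjusted p = 0.018).

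Timp2, which inhibits MMPs and also helps MMP14 to activate pro-MMP2, read 11.88, 12.02, 11.88 and 12.01 in EKO HFD and 11.99, 11.55, 12.21 and 12.18 in EKO ND. It read 11.95, 11.92 and 12.03 in WT HFD, against 12.05, 12.22 and 12.33 in WT ND. The 2 WT groups did not overlap, but lay close together. Their difference was −0.23 ± 0.14 (adjusted p = 0.504).

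Timp3, which binds to the matrix and inhibits ADAM17 and aggrecanases, varied widely within WT HFD. It read 12.77, 12.17, 12.26 and 12.38 in EKO HFD and 12.39, 12.99, 12.47 and 12.89 in EKO ND, against 12.79, 11.75 and 11.47 in WT HFD and 12.85, 12.11 and 12.51 in WT ND. All 4 groups overlapped, with 1 WT HFD array near the top and the other 2 the lowest of all. The diet difference was −0.48 ± 0.29 in WT (adjusted p = 0.474) and −0.29 ± 0.25 in EKO (adjusted p = 0.946). Without WT HFD replicate 1, the high array, the WT diet difference and that between genotypes on Western diet both passed (−0.88, adjusted p = 0.033, and 0.79, adjusted p = 0.0353).

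**Figure D3:**
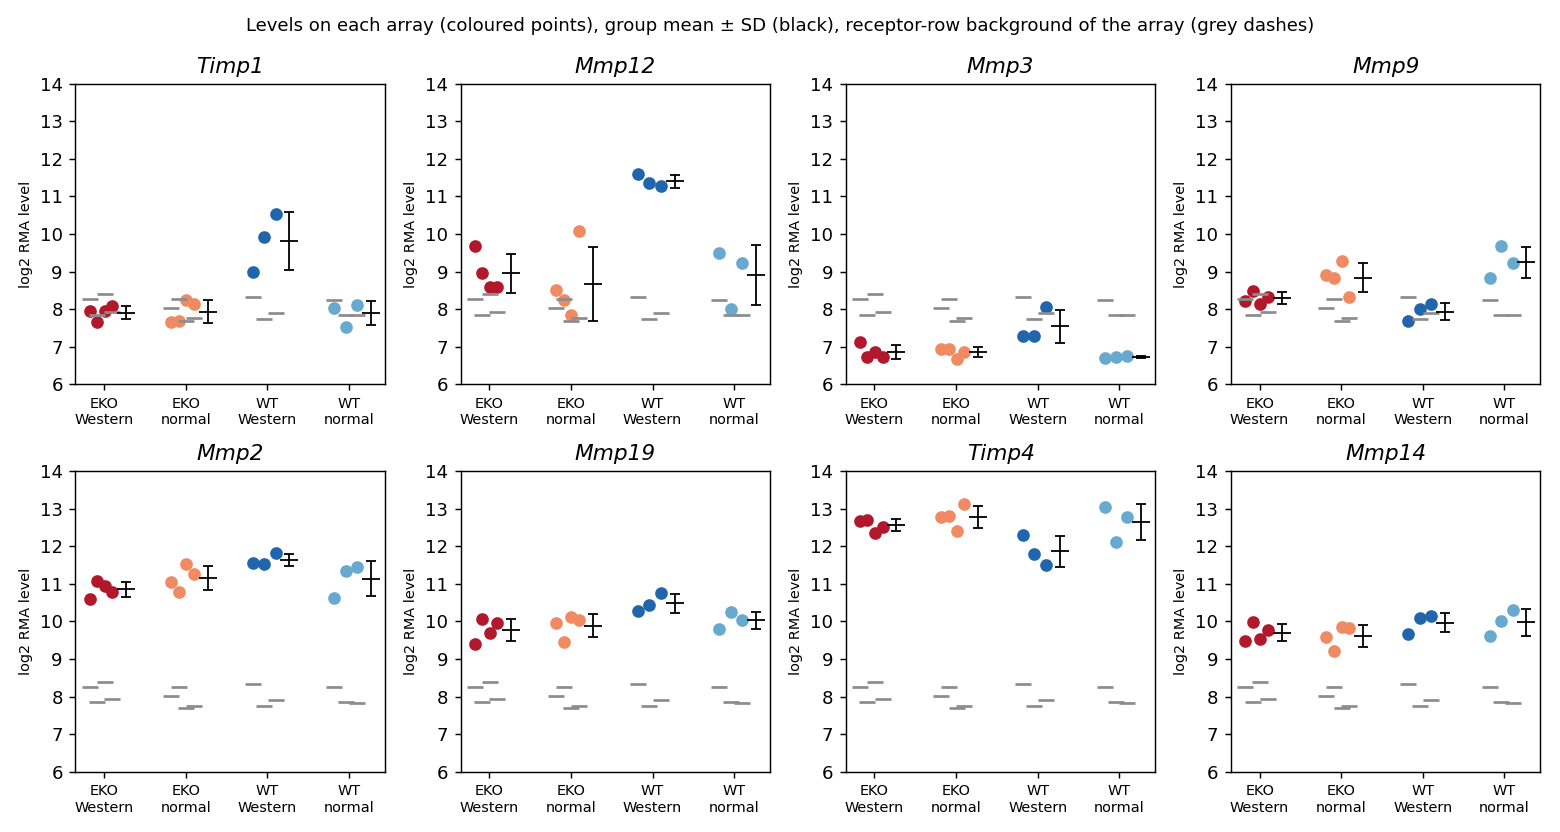
Log2 level of 8 members on each array (coloured points), with the group mean ± SD in black (n = 4 in EKO groups, 3 in WT groups) and the background level of each array as grey dashes. WT HFD stands above the other groups for Timp1 (9.82 ± 0.77) and Mmp12 (11.40 ± 0.16) and has the lowest mean for Mmp9 (7.94 ± 0.23).

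Mmp12, the macrophage elastase, showed the widest spread between groups among the members. Its levels were 9.67, 8.96, 8.59 and 8.59 in EKO HFD and 8.51, 8.25, 7.85 and 10.07 in EKO ND, against 11.59, 11.35 and 11.27 in WT HFD and 9.49, 8.01 and 9.24 in WT ND. The 3 WT HFD arrays lay close together and above all others, and the next was EKO ND replicate 4. Western minus normal diet was 2.49 ± 0.48 in WT (1.46 to 3.52, adjusted p = 0.00742) and 0.28 ± 0.42 in EKO (−0.61 to 1.18, adjusted p = 0.949). EKO minus WT on Western diet was −2.45 ± 0.45 (adjusted p = 0.0058). The difference between the diet effects was −2.20 ± 0.64 and did not pass (adjusted p = 0.16).

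Mmp7, matrilysin, is made mainly by epithelia in other tissues. It read 7.64, 8.28, 9.62 and 8.38 in EKO HFD, against 7.63, 7.06 and 7.14 in WT HFD. The 4 EKO arrays were all above the 3 WT arrays, narrowly at the nearest pair. The difference of 1.20 ± 0.44 did not pass (0.25 to 2.15, adjusted p = 0.144), and Mmp7 was not above background on all arrays of any group. It was above it on 3 of 4 EKO HFD and 0 of 3 WT HFD arrays.

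Of the stromelysins and their relatives, Mmp3 passed and Mmp10 and Mmp11 did not. Mmp3, stromelysin-1, cuts many matrix proteins and activates other pro-MMPs. It read 7.12, 6.72, 6.85 and 6.72 in EKO HFD and 6.95, 6.95, 6.68 and 6.85 in EKO ND, against 7.30, 7.29 and 8.05 in WT HFD and 6.69, 6.73 and 6.75 in WT ND. The 3 WT HFD arrays were the highest of the 14, but only replicate 3 was above background. Adjusted p was 0.0114 for the diet in WT and 0.0201 for EKO against WT on Western diet. No fold is given, since 1 array alone measured the gene. The diet call was lost when only the WT arrays were fitted (adjusted p = 0.081). The genotype call was lost without WT HFD replicate 3 (adjusted p = 0.0879), EKO HFD replicate 2 (0.0543) or EKO HFD replicate 4 (0.0609).

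Mmp11, stromelysin-3, was above background on all 14 arrays, with means of 8.98 ± 0.19 in EKO HFD, 8.84 ± 0.16 in EKO ND, 9.01 ± 0.15 in WT HFD and 8.96 ± 0.26 in WT ND (SD). Its diet difference in WT was 0.05, with an interval of −0.26 to 0.36. Mmp10, stromelysin-2, passed background on 2 of 14 arrays.

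The gelatinases, which cut denatured collagen and basement membrane collagen, passed in different comparisons, Mmp9 with diet in WT and Mmp2 between the genotypes on Western diet. Mmp9 read 8.21, 8.49, 8.15 and 8.33 in EKO HFD and 8.92, 8.82, 9.27 and 8.33 in EKO ND, against 7.68, 8.00 and 8.13 in WT HFD and 8.83, 9.67 and 9.23 in WT ND. On Western diet the WT arrays were all below the WT ND arrays, and 1 of the 3 was below background. The EKO arrays on Western diet lay at or under the lowest EKO ND array except for replicate 2. The diet difference was −1.31 ± 0.22 in WT (−1.78 to −0.83, adjusted p = 0.0033). In EKO it was −0.54 ± 0.19 (−0.95 to −0.13), which did not pass (adjusted p = 0.946), and 2 of 4 EKO HFD arrays were below background. The diet effects differed by 0.77 ± 0.29 and this did not pass either (adjusted p = 0.323).

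Mmp2 read 10.60, 11.07, 10.95 and 10.78 in EKO HFD and 11.05, 10.79, 11.53 and 11.25 in EKO ND, against 11.55, 11.53 and 11.81 in WT HFD and 10.61, 11.34 and 11.46 in WT ND. WT HFD did not overlap with EKO HFD or WT ND. EKO minus WT on Western diet was −0.78 ± 0.20 (−1.21 to −0.35, adjusted p = 0.0356). The diet difference was 0.49 ± 0.21 in WT (adjusted p = 0.247) and −0.31 ± 0.19 in EKO (adjusted p = 0.946). The genotype call was lost without WT HFD replicates 2 (adjusted p = 0.0925) or 3 (0.2), or without EKO HFD replicates 1 (0.0979), 3 (0.058) or 4 (0.0873).

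Mmp14, the membrane-bound enzyme that activates pro-MMP2 and cuts collagen at the cell surface, showed no difference that passed. It read 9.49, 9.98, 9.53 and 9.78 in EKO HFD and 9.58, 9.22, 9.85 and 9.83 in EKO ND, against 9.67, 10.08 and 10.14 in WT HFD and 9.61, 10.001 and 10.31 in WT ND. The 4 groups overlapped. The diet difference in WT was −0.01 ± 0.20, with an interval of −0.44 to 0.42. Of the 4 other membrane-anchored MMPs with a probe set, Mmp24 was above background on 10 of 14 arrays, and Mmp16, Mmp17 and Mmp25 on none.

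Mmp19, an enzyme that cuts basement membrane proteins, read 9.40, 10.06, 9.70 and 9.96 in EKO HFD and 9.95, 9.44, 10.11 and 10.03 in EKO ND, against 10.27, 10.43 and 10.76 in WT HFD and 9.79, 10.26 and 10.03 in WT ND. The 3 WT HFD arrays were the highest of the 14, 1 of them narrowly. EKO minus WT on Western diet was −0.71 ± 0.19 (−1.11 to −0.31, adjusted p = 0.0401). The diet difference in WT was 0.46 ± 0.20 and did not pass (adjusted p = 0.24). The genotype call was lost without WT HFD replicates 2 (adjusted p = 0.109) or 3 (0.245), or without EKO HFD replicates 1 (0.108), 3 (0.0883) or 4 (0.0593).

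Among the remaining MMPs, Mmp23 and Mmp28 were above background on all 14 arrays. Mmp23 averaged 9.25 ± 0.13 in EKO HFD, 9.30 ± 0.30 in EKO ND, 9.17 ± 0.19 in WT HFD and 9.60 ± 0.29 in WT ND (SD), with a diet difference of −0.43 ± 0.18 in WT (adjusted p = 0.206). Mmp28, epilysin, averaged 9.91 ± 0.23 in EKO HFD, 9.98 ± 0.25 in EKO ND, 9.84 ± 0.34 in WT HFD and 10.02 ± 0.07 in WT ND. Neither passed in any comparison. Mmp20, Mmp21 and Mmp27 were at background.

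None of the 18 Adamts genes passed in any of the 5 comparisons, at 0 called in limma. By adjusted p, 5.49% of all genes passed for diet in WT and 5.69% between genotypes on Western diet. The shares were 0.0% for diet in EKO, 0.00502% on normal diet and 0.482% for the difference of diet effects. By unadjusted p under 0.05, 1 Adamts gene passed with diet in WT, against 3379 of all 19937 genes. With diet in EKO 3 passed, against 883 of all genes, and on normal diet 0, against 226. Those 3 were Adamts9, Adamts6 and Adamts20, of which Adamts20 was not above background on any array. Between genotypes on Western diet 1 passed, against 3844, and for the difference of diet effects 0, against 2162. Adamts5, an aggrecanase that also cuts versican, had the largest difference among the 18 Adamts genes between EKO and WT on Western diet. It read 10.74, 11.18, 11.52 and 11.59 in EKO HFD, against 11.66, 12.52 and 12.50 in WT HFD. The 4 EKO arrays were below the 3 WT arrays, and the difference was −0.97 ± 0.35 (−1.72 to −0.22, adjusted p = 0.133). It passed without WT HFD replicate 1 (−1.25, adjusted p = 0.0472). The EKO ND arrays read 12.37, 10.74, 11.64 and 12.51, spanning nearly the whole range.

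Adamts9, which cuts versican and aggrecan, was lower in EKO HFD than in EKO ND without overlap. It read 10.65, 10.62, 10.64 and 10.63 in EKO HFD, against 10.76, 11.10, 11.08 and 11.00 in EKO ND. The 4 Western diet arrays were nearly equal. The difference was −0.35 ± 0.11 (−0.58 to −0.12) and did not pass (adjusted p = 0.806). All 6 probe sets of Adamts9 were lower on Western diet in EKO, by −0.68 to −0.08, and these share the same arrays. The 6 were also lower on Western diet in WT, by −0.31 to −0.09. For the set used here the WT diet difference was −0.19 ± 0.12 (adjusted p = 0.543). The diet effects differed by −0.16 ± 0.16, which did not pass (adjusted p = 0.804). The other members with the smallest p for diet in EKO were Mmp9, Adamts20 (0.18), Adamts6 (0.26) and Adamts12 (−0.38). Adamts20 was not above background on any array. Adamts6 was above it on 2 of 4 EKO HFD and 0 of 4 EKO ND arrays.

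Adamts12, which cuts cartilage oligomeric matrix protein, read 9.66, 9.74 and 9.73 in WT HFD, against 9.84, 10.90 and 10.45 in WT ND. The groups did not overlap, although the lowest WT ND array was close to the WT HFD arrays. The difference was −0.69 ± 0.24 (−1.20 to −0.17, adjusted p = 0.127), and it passed without WT ND replicate 1 (−0.97, adjusted p = 0.0224). Adamts7, which cuts the same substrate, averaged 8.87 ± 0.09 in WT HFD and 8.85 ± 0.05 in WT ND (SD, n = 3 each).

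Adamts1, a versican-cleaving enzyme, averaged 9.48 ± 0.49 in EKO HFD, 9.78 ± 0.23 in EKO ND, 9.90 ± 0.69 in WT HFD and 9.79 ± 0.85 in WT ND (SD). The spread within WT groups exceeded all 4 differences between groups. The procollagen N-proteinases Adamts3 and Adamts14, which remove the N-terminal propeptide of fibrillar procollagens, differed by −0.05 and 0.03 with diet in WT, with intervals of −0.31 to 0.21 and −0.17 to 0.23. All 16 probe sets of Adamts3 were lower on Western diet in WT, by −0.35 to −0.02. They were also all lower in EKO than WT on normal diet, by −0.29 to −0.01. These sets share the same arrays, and the dimmest averaged 5.60, under background. Adamts10 and Adamts17 were above background on all 14 arrays, and their differences in the 4 pairwise comparisons ran from −0.13 to 0.22. Adamts13, which cuts von Willebrand factor, was at background, as were Adamts18, Adamts19 and Adamts20. Adamts4, Adamts6, Adamts8, Adamts15 and Adamts16 passed background on some arrays of the 14. Adamts2 and Mmp15 match the rule by symbol but were not analysed here.

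On mouse chromosome 9, 10 of the members are neighbours. In order along GRCm38.p6 they are Mmp13, Mmp12, Mmp1b, Mmp3, Mmp1a, Mmp10, Mmp8, Mmp27, Mmp20 and Mmp7, with 3 other annotated genes among them. Of the 10, Mmp12 and Mmp3 passed as higher in WT fat on Western diet, against 3.19% of all genes, and as lower in EKO than WT fat on that diet, against 4.05% of all genes. Mmp3 lay at background. The median of the 10 differed by 0.02 with diet in WT, against −0.02 for all genes. Mmp13, next to Mmp12, read 6.71 to 7.17 in WT HFD and 6.53 to 6.71 in WT ND, under background throughout.

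Promoter windows from RefSeq (GRCm38.p6), of 250 bases before to 50 after the start, were found for 30 of the 44 members, in 33 windows. They were searched on both strands for TGAGTCA, the site of AP-1, a transcription factor known to act on human collagenase and stromelysin genes. The letters were present in 7 of the 30 members, all of them in the chromosome 9 cluster, which has 10 genes in the table. Among all 32851 windows 5.2% held them. GAGGAA, the core of some ETS factor sites, was in 6 of the 30 members, against 28.3% of all windows. TTGCGCAA, a C/EBP site, was in 0 of the 30, against 0.183% of all windows. No match of 1 motif in a member overlapped a match of another. A match is a string of letters and shows no binding.

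The whole windows of Mmp12 and Mmp3 are given because these are the cluster genes that passed. That of Timp1 is given because it passed in 3 comparisons and holds no exact TGAGTCA. Only the exact letters were searched, so close variants such as the TGAGTAA in the Timp1 window were not counted. Capitals mark TGAGTCA or its reverse complement.
Mmp12, chr9:7347124-7347423, plus strand: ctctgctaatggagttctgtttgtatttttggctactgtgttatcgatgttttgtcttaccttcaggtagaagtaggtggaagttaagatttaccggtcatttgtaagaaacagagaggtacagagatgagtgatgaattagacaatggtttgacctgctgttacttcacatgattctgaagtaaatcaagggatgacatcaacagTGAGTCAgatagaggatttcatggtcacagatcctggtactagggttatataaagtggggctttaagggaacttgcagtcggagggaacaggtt
Mmp3, chr9:7445572-7445871, plus strand: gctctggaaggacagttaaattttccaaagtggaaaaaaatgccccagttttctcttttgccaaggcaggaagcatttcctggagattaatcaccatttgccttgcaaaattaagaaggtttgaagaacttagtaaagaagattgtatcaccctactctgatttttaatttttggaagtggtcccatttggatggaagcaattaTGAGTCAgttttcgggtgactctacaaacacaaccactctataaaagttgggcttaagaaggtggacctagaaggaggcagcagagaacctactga
Timp1, chrX:20869916-20870215, plus strand: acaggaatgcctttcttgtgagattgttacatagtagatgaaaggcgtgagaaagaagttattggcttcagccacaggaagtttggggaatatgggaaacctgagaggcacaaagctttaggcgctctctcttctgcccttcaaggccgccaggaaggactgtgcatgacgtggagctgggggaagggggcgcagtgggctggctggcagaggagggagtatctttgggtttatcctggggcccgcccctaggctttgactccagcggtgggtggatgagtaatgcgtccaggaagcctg

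In Mmp12 the capitals begin 44 bases before the second of its 2 annotated starts, and in Mmp3 46 bases before the start. The other 5 genes with the letters are shown as stretches of 120 bases around them. None of these 5 was above background on all arrays of a group, so the letters cannot be set against a measured response there. They begin 35 bases before the start in Mmp13, 93 in Mmp1b, 73 in Mmp1a and 63 in both Mmp10 and Mmp7.
Mmp13, chr9:7272422-7272541, plus strand: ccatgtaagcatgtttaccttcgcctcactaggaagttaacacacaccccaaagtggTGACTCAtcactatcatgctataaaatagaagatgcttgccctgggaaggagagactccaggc
Mmp1b, chr9:7388057-7388176, minus strand: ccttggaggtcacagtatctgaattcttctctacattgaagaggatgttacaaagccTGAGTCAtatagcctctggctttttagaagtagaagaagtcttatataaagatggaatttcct
Mmp1a, chr9:7464011-7464130, plus strand: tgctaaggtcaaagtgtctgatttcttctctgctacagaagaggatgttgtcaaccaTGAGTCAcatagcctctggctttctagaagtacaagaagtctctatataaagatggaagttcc
Mmp10, chr9:7502222-7502341, plus strand: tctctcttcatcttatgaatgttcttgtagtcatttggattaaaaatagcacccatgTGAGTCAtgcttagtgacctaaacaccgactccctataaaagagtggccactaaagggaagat
Mmp7, chr9:7691970-7692089, plus strand: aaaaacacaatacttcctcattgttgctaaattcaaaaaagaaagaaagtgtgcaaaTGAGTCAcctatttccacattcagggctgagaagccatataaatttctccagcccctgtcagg

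Genes of macrophages were higher in WT HFD, as were the members that passed except Mmp9, which was lower there. Each of the 14 genes of a macrophage list was above background on at least 1 array of every group. The list mean ran from 9.91 to 10.30 over EKO HFD arrays and from 9.39 to 10.42 over EKO ND arrays, against 10.83 to 11.33 in WT HFD and 9.78 to 10.08 in WT ND. WT HFD lay above all other arrays, as it did for Timp1 and Mmp12. With Western diet in WT, 8 of 14 passed as higher and 0 as lower, with a median difference of 1.05, against 3.19% of all genes higher. In EKO against WT on Western diet 9 of 14 were lower and 0 higher, with a median of −0.96, against 4.05% of all genes lower. Itgax, a surface integrin of fat macrophages in obesity, averaged 10.06 ± 0.17 in WT HFD and 7.91 ± 0.17 in WT ND. The WT ND mean lay within the background levels of its arrays, 7.83 to 8.25. Within groups, the array highest for Mmp12 had the highest list mean in EKO ND (replicate 4). It had the lowest list mean in EKO HFD, WT HFD and WT ND (replicate 1 in each). Those replicate 1 arrays were all among the 5 arrays with the higher receptor rows. In whole tissue, fewer cells of a type and less RNA per cell cannot be told apart. The part of macrophages in the results for Timp1, Mmp12 and Mmp9 was not tested.

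**Figure D4:**
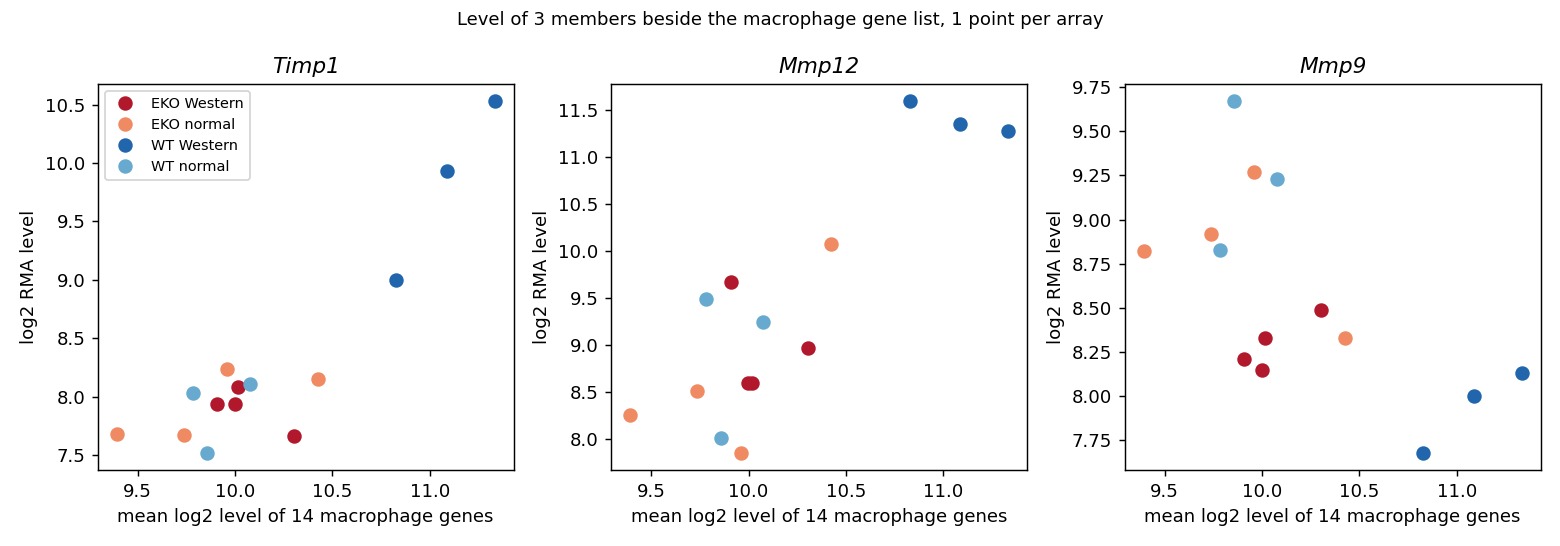
Log2 level of Timp1, Mmp12 and Mmp9 on each array against the mean log2 level of 14 macrophage genes on that array, coloured by group. The 3 WT HFD arrays lie apart at list means of 10.83 to 11.33, high for Timp1 and Mmp12 and low for Mmp9.

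Other cell type lists moved too. Of 9 genes of dividing cells 8 were higher with Western diet in WT and 9 were lower in EKO than WT on Western diet. Over all genes 3.19% were higher in the first comparison and 4.05% lower in the second. Those of the 9 not above background on any array numbered 8 in EKO HFD, 6 in EKO ND, 2 in WT HFD and 6 in WT ND. Of 12 mesothelial genes, which mark the surface layer of the pad, 10 were lower with Western diet in WT, against 2.3% of all genes. In EKO against WT on Western diet 2 were higher, against 1.64% of all genes. The mesothelial list mean ran from 9.51 to 9.80 in EKO HFD and 9.27 to 9.85 in EKO ND, against 9.01 to 9.15 in WT HFD and 9.82 to 10.31 in WT ND. Like Mmp9, it was lowest in WT HFD. The part of these cells in the members' results was not tested.

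Human neutrophils store Mmp8, Mmp9 and Mmp25 in granules. Of 10 neutrophil genes, 7 or 8 by group were not above background on any array, and S100a8 alone passed, as higher with Western diet in WT. S100a8 was not above background on any WT ND array. The list mean stayed between 6.83 and 7.24 over all 14 arrays. Of 11 genes of fibroblasts and adipocyte progenitors, Lum was higher and Fbln1 lower with diet in WT, and Lum was lower in EKO than WT on Western diet. Of 9 adipocyte genes, Adipoq and Slc2a4 were lower with diet in WT and higher in EKO than WT on Western diet, while the list mean lay between 13.15 and 13.41 on all arrays. None of 10 endothelial, 9 mast cell and 10 epididymal genes passed in either comparison (by unadjusted p 0, 3 and 0 with diet in WT, and 3, 0 and 1 between genotypes), and 9 or 10 of the epididymal genes were below background by group. Of 10 smooth muscle and pericyte genes, Myh11 was lower with diet in WT and Lmod1 higher in EKO than WT on Western diet. Lmod1 was not above background on any WT HFD array. No gene of any of these lists passed with diet in EKO or between genotypes on normal diet. By unadjusted p the most with diet in EKO were 5 of the 10 smooth muscle and pericyte genes, and on normal diet 7 of the 12 mesothelial and 5 of the 9 mast cell genes.

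The other families that act with the members were read from 6 lists. Of 11 ADAM family genes, mostly membrane relatives of the ADAMTS enzymes, Adam8 and Adam12 were higher with Western diet in WT. Both were lower in EKO than WT on that diet. Adam8, a protease of myeloid cells, averaged 8.24 ± 0.09 in EKO HFD, against 9.94 ± 0.40 in WT HFD and 8.27 ± 0.10 in WT ND (SD). Its diet difference in WT was 1.67 ± 0.18 (adjusted p = 0.000183), and the diet effects differed by −1.63 ± 0.24 between genotypes (adjusted p = 0.00715). The EKO HFD mean of Adam8 lay within the background levels of those arrays, 7.86 to 8.40. The WT ND mean lay just above those of its arrays, 7.83 to 8.25. Adam12 differed by 0.73 ± 0.19 with diet in WT (adjusted p = 0.0325). The list's median was 0.27 with diet in WT and −0.33 for EKO against WT on Western diet.

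The plasminogen system, whose plasmin activates several pro-MMPs, had 0 of 9 genes called with diet in WT, 1 by unadjusted p (median 0.20). Plau, urokinase, was the 1 of 9 lower in EKO than WT on Western diet, at 9.34 ± 0.29 in EKO HFD and 10.17 ± 0.31 in WT HFD (difference −0.83 ± 0.21, adjusted p = 0.0289 and list median −0.26).

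Of 16 other regulators, 2 were higher and 3 lower with diet in WT, with a median of 0.01. Cd44, a hyaluronan receptor that can hold MMP9 at the cell surface, was higher by 1.41 ± 0.23 (adjusted p = 0.00223). Pcsk6, a proprotein convertase, averaged 10.46 ± 0.10 in WT HFD and 11.16 ± 0.16 in WT ND (difference −0.70 ± 0.14, adjusted p = 0.0109). Spock3, a testican, also passed as lower (adjusted p = 0.00487), with means of 6.22 and 6.86 that lie under background. In EKO against WT on Western diet 1 was higher and 4 were lower, with a median of −0.07. Pcsk6 was the higher one (0.68, adjusted p = 0.00904). Cd44 was lower by −1.34, and Pcolce2, an enhancer of procollagen C-proteinase, averaged 10.27 ± 0.29 in EKO HFD and 11.81 ± 0.33 in WT HFD (adjusted p = 0.00507). The diet effect on Pcsk6 differed between genotypes by 0.93 ± 0.19 (adjusted p = 0.0475).

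Of 12 astacin proteases, serine proteases and other enzymes that act on the matrix, Fap, a protease of activated fibroblasts, passed in both comparisons. It averaged 7.36 ± 0.12 in EKO HFD, against 8.29 ± 0.25 in WT HFD and 7.73 ± 0.23 in WT ND, with adjusted p = 0.00198 for EKO against WT on Western diet and 0.0454 for diet in WT. The EKO HFD and WT ND means of Fap lay under the background levels of their arrays, 7.86 to 8.40 and 7.83 to 8.25. Of 6 ADAMTS-like proteins and papilin, Adamtsl1 was lower with diet in WT (−0.73 ± 0.20, adjusted p = 0.0418) and 0 passed in EKO against WT on Western diet, 1 by unadjusted p. Of 16 proteoglycan and glycoprotein substrates, Ncan was higher and Lama4 lower with diet in WT. Ncan, the proteoglycan neurocan, averaged 8.53 ± 0.10 in EKO HFD, against 10.55 ± 0.67 in WT HFD and 8.49 ± 0.07 in WT ND, and its diet effects differed by −1.84 ± 0.30 between genotypes (adjusted p = 0.0146). Lama4, a laminin chain of basement membranes, fell by 0.66 on the log2 scale (adjusted p = 0.00398). Ncan and Tnc, the matrix glycoprotein tenascin C, were lower in EKO than WT on Western diet (−2.02 and −0.75). The Tnc mean of 7.92 in EKO HFD lay within the background levels of those arrays. With diet in EKO no gene of the 6 lists passed, and by unadjusted p 3 of the 16 substrates and 0 genes of the other lists did.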

How the data were processed

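RNA of 14 fat pads was hybridised to Affymetrix whole-transcript arrays, labelled with the Ambion and Affymetrix kits per the labels. The deposited values are on a log2 scale, 1 per probe set in each array, and RMA is the tool the submitters' processing notes name; no version, setting or genome build is stated for it. The values ran from 4.21 to 14.5, the basis for reading them as log2, and were used as deposited. Because RMA brings the arrays' distributions close together, a shift common to most genes could be hidden. Depth is not defined for arrays; the number of arrays limits the precision.

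The table has 34760 rows, of which 21640 have 1 symbol in the platform annotation, 1321 several and 11799 none. Of the first, 21553 matched a gene of GRCm38.p6 by Entrez ID and 0 symbols changed. For 954 genes with several probe sets, 3 of them members (Adamts3, Adamts9 and Adamts17), the set with the highest mean was kept. Several hybridisation targets share sequence (Mmp1a and Mmp1b are close copies), so their probe sets may read each other's RNA.

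Contrasts between 4 group means were fitted to all 14 arrays with limma 3.58.1 (lmFit, then eBayes; R 4.3.3; two-sided, Benjamini-Hochberg over 19937 genes, threshold 0.05); the code was tested on simulated data. Figures used matplotlib 3.10.9. Every member is accounted for. Per-array values are given for members that passed, Timp1 to Timp4, Mmp2, Mmp9, Mmp12 and Mmp14, and for a few more that were chosen after their values were seen (Mmp7, Adamts5, Adamts9, Adamts12). Where under 5 members passed, the 5 with the smallest p are named; of each further list, up to 3 genes with the smallest p among those that passed, and Lum, Fbln1, Adipoq, Slc2a4, Myh11, Lmod1 and S100a8 as the genes behind small counts. The members and all lists were chosen with earlier results of these data known. Arrays were not treated as paired by replicate number. Deviations of same-numbered arrays correlated at 0.00889 to 0.458 between WT diets and −0.594 to 0.452 between EKO diets. Between genotypes they correlated at −0.109 to 0.207 on normal diet and −0.114 to 0.644 on Western diet. In no comparison was every pair over 0.1. The replicate 1 pairs were positive in each, in that order at 0.458, 0.2, 0.162 and 0.644. Whether same-numbered arrays share a batch was not tested. Alternatives changed the prior, array weights, centring, normalization, filter, probe sets, rows tested, arrays fitted, background level and background set, and left out each array in turn.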

Additional observations from a re-analysis of the deposited data

Results flagged for a closer look

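Timp1 differed between genotypes in its response to Western diet, by −1.97 on the log2 scale (EKO diet effect minus WT diet effect, adjusted p = 0.0395 in limma). Among 88 sets of 4 arrays (44 members in 2 EKO groups), 3 held 1 array apart from the others by Dixon's criterion, which chance gives in about 1 of 20 sets. Adamts4 read 8.24 in EKO HFD replicate 1, against 7.88 to 7.93 in the other arrays of the group. Mmp20 read 6.85 in EKO ND replicate 2, against 6.50 to 6.55. Mmp21 read 7.11 in EKO ND replicate 1, against 7.19 to 7.21. Mmp20 and Mmp21 were below background on all 14 arrays.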

How the results depend on the processing

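None of the 25 named differences of single members changed sign under the alternatives run for it, and the counts in EKO with diet and between genotypes on normal diet were 0 under each of them. With array weights 18 members passed for diet in WT, 18 for EKO against WT on Western diet and 9 for the difference of diet effects, against 4, 5 and 1 in the results above. With the background set of the arrays as a block 7 passed for diet in WT. For EKO against WT on Western diet 3 passed with all rows tested, 3 with only the arrays compared and 8 on the arrays of lower background, and 2 to 8 with 1 array left out. For the difference of diet effects 0 passed with all rows tested, 3 on the arrays of lower background and 0 to 2 with 1 array left out. By the mean of the receptor rows, 40 members lay above background in a group, against 21. The cause of these shifts was not tested.

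Pairing by replicate number was not used in the results above. With the replicate block 5 members passed for diet in WT, where Timp4 joined (adjusted p = 0.039), 5 for EKO against WT on Western diet, 1 for the difference and 0 for the other comparisons. Mmp2 and Mmp19 were also lost for EKO against WT with all rows tested (adjusted p = 0.0691 and 0.0755), Mmp19 and Mmp3 with only the arrays compared (0.0503 and 0.0739), and the Timp1 difference with all rows tested (0.0912). Mmp3 passed for the difference without WT HFD replicate 1 (0.0424), and with array weights so did Mmp3 (0.0206) and Mmp12 (0.0108). On the 9 arrays of lower background Timp1 differed by 2.42 with diet in WT (0.00112), Mmp12 by 2.69 (0.022) and Mmp9 by −1.39 (0.00921). In that set WT HFD and WT ND each kept only replicates 2 and 3. EKO HFD kept replicates 2 and 4, and EKO ND replicates 1, 3 and 4. Among all genes the calls ranged from 415 without WT HFD replicate 3 to 5224 with array weights for diet in WT (1094 above), from 316 to 6789 under the same settings for EKO against WT on Western diet (1134), from 37 without WT ND replicate 2 to 2338 with array weights for the difference (96), from 0 to 8 for diet in EKO and from 1 to 3 on normal diet. Timp4 passed for EKO against WT on Western diet with quantile normalization (0.0495), array weights (0.00044) and on the arrays of lower background (0.0445), and for diet in WT with the background block (0.0342) and array weights (0.000379). Adamts5 passed on the arrays of lower background for EKO against WT on Western diet (0.0247) and for the difference (0.0479). The median of all genes lay near 0 and its sign changed with the setting for diet in EKO and on normal diet. Leaving out the dimmest 25% of genes removed 11 members, among them Mmp3 and Mmp25, the ones named for a difference. The difference has no fit of only the arrays compared, since it uses all 4 groups.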
